A study of Zea mays with 4 samples.

Results

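A total of 6 of 26167 gene models in the count table differed in transcript use between 2 maize tissues, the female inflorescence (FI) and the topmost internode section of the stalk (TI). A gene model is here a transcript name without its transcript number, and the share of a transcript is its count as a percent of the summed count of its model in that library. Models were kept when at least 2 transcripts were listed and the summed count was at least 50 in each library, which left 1560 of the 7437 models with more than 1 transcript. The 6 were chosen by their measured shares and are those in which the share of a transcript lay above or below both TI libraries in both FI libraries, with tissue means at least 20 percentage points apart. They make up 0.385% of the kept models. Because these shares chose the members, they are given as a description and without a test.

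RNA was taken from FI, bagged before the silks emerged, and from TI of greenhouse-grown Puma hybrid plants at 60 DAS, before pollination. Both tissues came from the same hybrid, no treatment was applied, and the study describes the 2 libraries of each tissue as biological replicates. How many plants went into a library is not given in the sources used here. The count table calls the tissue other than TI floral stem, a name that the sample labels do not use, and it was read as FI here, since no further tissue is in the series.

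Plant genes often give rise to several mature RNAs through alternative splicing, alternative start sites or alternative ends. A change in the use of these RNAs can alter the protein that is made, or the stability and translation of the RNA, while the total output of the gene stays the same. Intron retention is a common form of alternative splicing in plants. The counts carry transcript names only, and no exon structure or sequence of these transcripts was used here. Which kind of event separates the transcripts of a member was therefore not tested.

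Total counts were between 2072230 and 2431447 in FI and between 1455729 and 1817889 in TI. Of 14 floral genes listed, 10 were found in the table. Of these 10, 9 were higher in FI than in TI without overlap of the libraries, among them the MADS-box gene zag1. The 10th, kn1, a meristem gene, was higher in both TI libraries. The summed level of all 10 was 771 and 609 CPM (counts scaled to the library total) in FI, against 40.7 and 315 CPM in TI, and without kn1 it was 763 and 603 CPM in FI, against 16.5 and 300.2 CPM in TI. The higher TI value was in replicate 2. Of 6 internode wall genes listed, 4 were found. Of these, bm1, an enzyme gene of lignin synthesis, was higher in TI, cesa10 and cesa12 were higher in FI, and bk2 overlapped. The counts of cesa12 were near 0, with 2 and 5 in FI, against 0 and 1 in TI. Of 6 green tissue genes listed, 4 were found. Of these, ssu1, psbs1 and ppdk1 were higher in both TI libraries. The model matched to the symbol pep1, GRMZM5G899080, was higher in both FI libraries, with 18 and 24 counts, against 1 and 3 in TI. This match was made by symbol or synonym alone and was not checked further.

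Most kept models used 1 main transcript in both tissues. The leading transcript held more than 90% of the counts in 1136 of 1560 models, and the median of its share over all kept models was 97.6%. In the 6 members it held between 58.3% and 76.1%. With a leading share of more than 90%, averaged over the tissues, a difference of 20 percentage points cannot arise. The lower leading shares of the members were thus fixed in part by the rule. The largest difference between FI and TI had a median of 1.13 percentage points over all kept models, and it was under 5 percentage points in 1310 of them. In the members it lay between 20.3 and 29.4 percentage points.

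**Figure D1:**
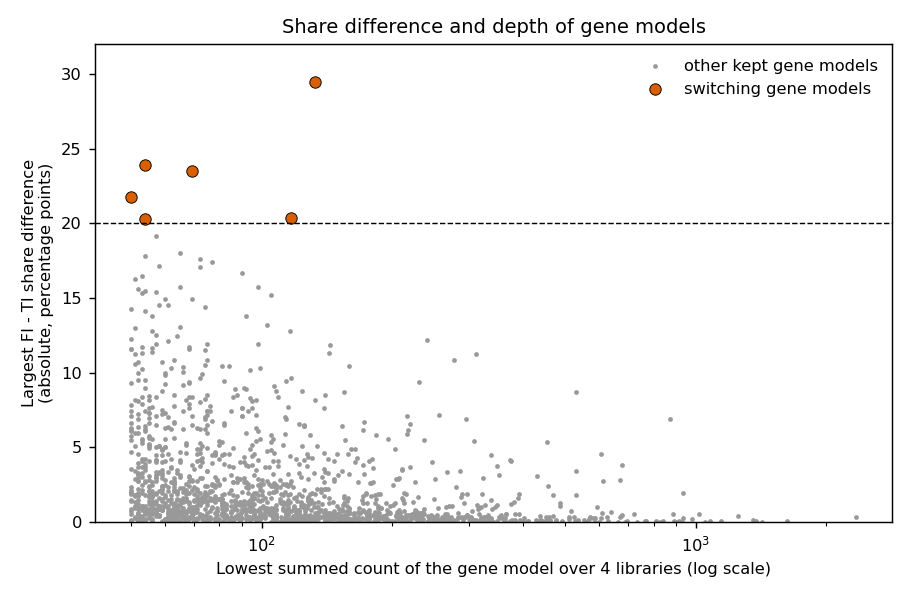
Each point is 1 of the 1560 kept gene models, with its lowest summed count over the 4 libraries on a log axis and its largest absolute difference of tissue mean share (FI minus TI, percentage points) on the other axis. The 6 members lie above the dashed line at 20 percentage points and have lowest sums from 50 to 133 counts, while kept models reach 2344 counts.

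Of the 6 members, 4 had fewer than 100 counts in a library, as had 51.7% of all kept models. The lowest summed count of a member in a library was 50 to 133, with a median of 61.5. The other 1554 kept models had a median of 97.0, and GRMZM2G112337, with 133, and GRMZM2G058039, with 117, lay above it. The members had 2 to 7 transcripts in the table, with a median of 3.5, and the other kept models had a median of 2. With these counts the Wilson 95% interval of a share, which covers counting error only, was between 4.31 and 26.0 percentage points wide. In 1 of the 6, GRMZM2G112337, the intervals of both FI libraries were apart from those of both TI libraries. How many of all kept models had such intervals was not counted. The TI intervals of T01 in GRMZM2G112337 were also apart from each other. The lower end was 40.5% in TI replicate 1 and the upper end was 24.4% in TI replicate 2. Counting error alone thus does not cover the spread between the TI libraries of this transcript.

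**Figure D2:**
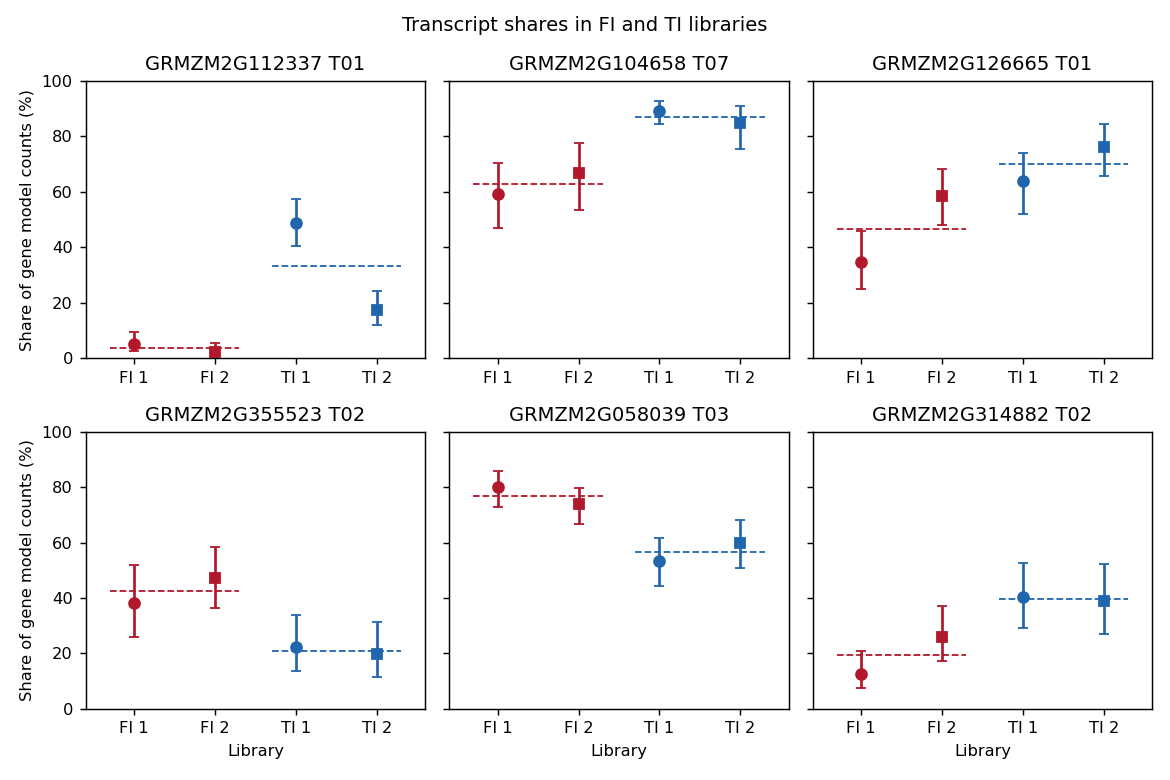
Share of the gene model's counts (%) held by the transcript with the largest difference in each member, in FI (red) and TI (blue) libraries, with circles for replicate 1 and squares for replicate 2. Bars are Wilson 95% intervals for counting error and dashed lines are tissue means. GRMZM2G112337 T01 has the lowest shares in FI, with 5.03% and 2.31%, and the widest spread in TI, with 48.9% and 17.4%.

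The largest difference was found in GRMZM2G112337. Its transcript T01 held 5.03% and 2.31% of the counts in FI, against 48.9% in TI replicate 1 and 17.4% in TI replicate 2. These shares rest on 8 and 5 counts in FI, against 65 and 25 counts in TI. T01 was thus a minor transcript in FI and close to even with T03 in TI replicate 1 only, so that the groups did not overlap but the TI libraries lay far apart. The mean share was 3.67% ± 1.92 (SD, n = 2) in FI, against 33.1% ± 22.3 in TI, a difference of −29.4 percentage points.

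T03 of GRMZM2G112337 moved the other way, with 93.7% and 86.1% in FI, against 48.1% and 76.4% in TI. It stayed the leading transcript by tissue mean in both tissues. T02 held between 1.26% and 11.1% over the 4 libraries, without a separation of the tissues, and T04 had 1 count in all. The summed level of the model was nearly the same in both tissues, 84.2 CPM in FI, against 88.6 CPM in TI after TMM normalization, and the log2FC was −0.07 (standard error 0.30). In CPM, T01 had 3.29 and 2.41 in FI, against 35.8 and 17.2 in TI, while T03 had 61.3 and 89.8 in FI, against 35.2 and 75.6 in TI. The levels of T03 overlapped between the tissues and those of T01 did not.

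In the RefSeq gene table of the later assembly Zm-B73-REFERENCE-NAM-5.0, the name GRMZM2G112337 is given to 2 neighbouring genes, LOC100285152 and LOC100382248. Of the 1271 kept models with a match in that table, 60 match more than 1 RefSeq gene. Whether T01 and T03 belong to these 2 genes or to 1 of them was not tested. If they were separate genes, the shares would compare the levels of neighbours and not the transcripts of 1 gene.

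GRMZM2G104658 was the only member with a gene name, atg1t, in the tables used. That name was taken from the authors' list of genes differentially expressed between FI and TI, which gives no names for genes outside it. The name places GRMZM2G104658 with the ATG1 protein kinases, which in yeast and Arabidopsis start autophagy. In autophagy, cells degrade and recycle their own content. Transcript T07 held 59.4% and 66.7% of the counts in FI, against 89.2% and 84.7% in TI. The FI libraries both lay below the TI libraries, 18.0 percentage points apart at the nearest. The mean share was 63.0% ± 5.16 (SD, n = 2) in FI, against 87.0% ± 3.17 in TI, a difference of −23.9 percentage points.

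The second transcript of atg1t, T01, held 31.2% and 24.1% in FI, against 8.56% and 14.1% in TI. The other 5 transcripts listed, T02, T03, T04, T05 and T09, had 4 counts or fewer in every library. T07 differed in level as well as in share, with 15.6 and 17.4 CPM in FI, against 109 and 49.5 CPM in TI. T01 was at similar levels, with 8.23 and 6.27 CPM in FI, against 10.5 and 8.24 CPM in TI. The larger total of this gene in TI was thus counted on T07.

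Among the 6 members, atg1t had the largest difference in summed level. It had 64 and 54 counts in FI, against 222 and 85 counts in TI, and the log2FC was −1.85 (standard error 0.44). Leaving out TI replicate 1 gave −1.16 and leaving out TI replicate 2 gave −2.25. The FPKM values of this gene, made by the authors in a separate mapping to B73 RefGen_v4 (Zm00001d026677), were 2.89 and 2.997 in FI, against 17.5 and 9.21 in TI. The TI libraries were above the FI libraries on both scales.

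GRMZM2G126665 was the only member whose leading transcript was another one in FI than in TI. Transcript T01 held 34.7% and 58.4% in FI, against 63.8% and 76.3% in TI, and T02, the other transcript of the model, held the rest. T02 led in FI with a mean share of 53.4% and T01 led in TI with a mean share of 70.0%. The exchange was not the same in both FI libraries, since T01 already held most counts in FI replicate 2. The libraries of FI differed by 23.8 percentage points, more than the 23.5 percentage points between the tissue means, and FI replicate 2 lay only 5.34 percentage points below TI replicate 1.

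A change of the leading transcript was seen in 25 of the 1560 kept models, or 1.6%, and in 8 of these both transcripts concerned were without overlap between the tissues. Among the 24 of them that are not members, the largest difference was 15.4 percentage points. The RefSeq table gives the gene of GRMZM2G126665, LOC100216781, also the name of a further model, GRMZM2G427087, which had 15 and 21 counts in FI, against 14 and 20 in TI. With those counts joined to the model, a setting chosen after seeing the data, T02 held 44.0% in FI, against 24.4% in TI, and the difference of 19.6 percentage points was under the limit. GRMZM2G427087 is also listed for a neighbouring gene, LOC100279100, so where its counts belong is uncertain.

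GRMZM2G355523 has 2 transcripts in the table and no match in the RefSeq table. T02 held 38.0% and 47.4% in FI, against 22.2% and 19.7% in TI, from 19 and 36 counts in FI, against 14 and 12 counts in TI. T01 led in all 4 libraries. The TI libraries agreed within 2.55 percentage points and the FI libraries within 9.37 percentage points, against 21.7 percentage points between the tissue means, which were 42.7% in FI and 20.9% in TI. Its summed count of 50 in FI replicate 1 was exactly at the limit for keeping a model.

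GRMZM2G058039, also without a RefSeq match, used T03 as its leading transcript in all libraries. T03 held 80.0% and 73.7% in FI, against 53.2% and 59.8% in TI. The share was lower in both TI libraries, by 20.3 percentage points between the means. T01 took up most of that share, with 16.6% and 21.8% in FI, against 43.5% and 27.4% in TI, while T02 held 12.8% in TI replicate 2 and less than that in the others. The summed level did not move with the shares, with a log2FC of −0.08 (standard error 0.27).

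GRMZM2G314882, the gene LOC100274393 of the RefSeq table, was the member with the smallest difference. T02 held 12.6% and 26.0% in FI, against 40.3% and 38.9% in TI, a difference of −20.3 percentage points between the means. T01 was the leading transcript throughout, with 80.0% and 67.1% in FI, against 56.5% and 55.6% in TI. The TI libraries were close to each other, and most of the spread was between the FI libraries, which differed by 13.4 percentage points in T02. The summed level was 37.1 CPM in FI, against 36.8 CPM in TI, and the log2FC was 0.02 (standard error 0.27).

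**Figure D3:**
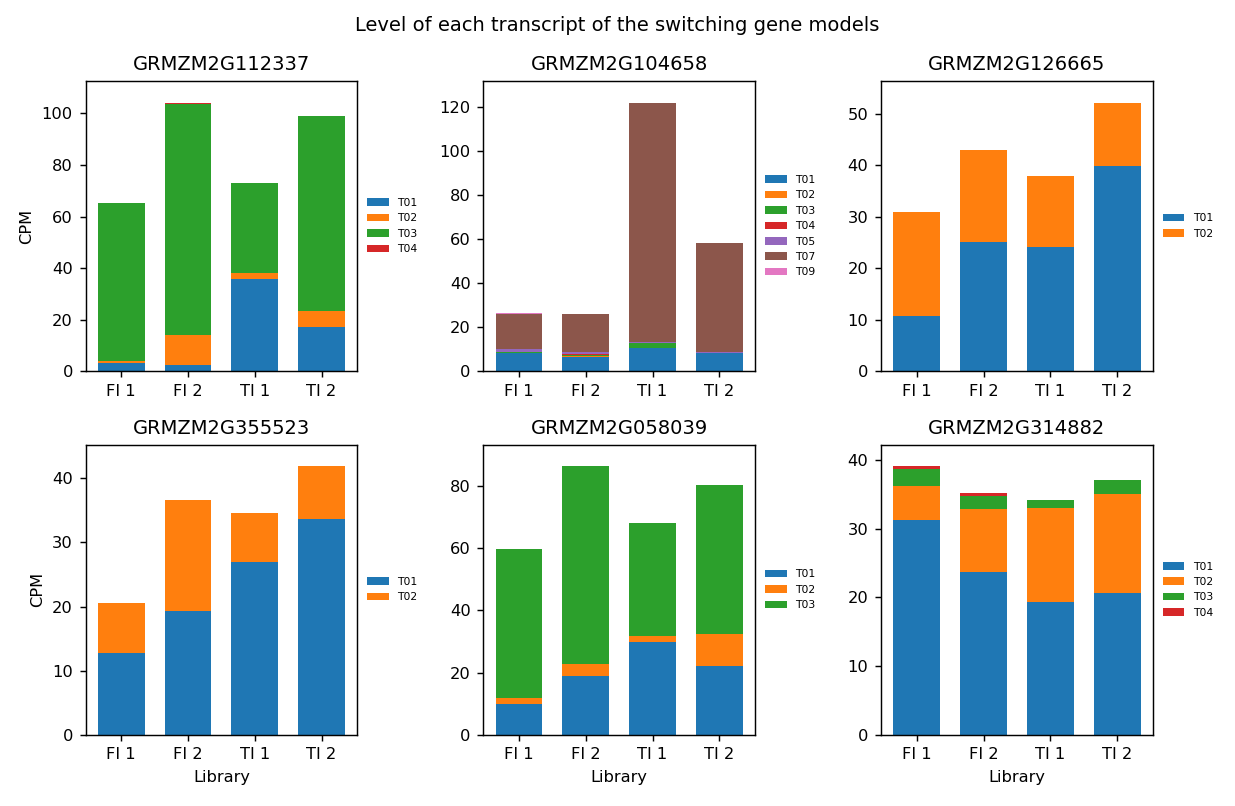
Stacked bars give the level of each transcript (CPM, counts scaled to the library total) of the 6 members in each FI and TI library, with 1 colour per transcript number within a panel. The height of a bar is the level of the whole model, which for GRMZM2G104658 is higher in both TI libraries, mostly through T07 with 109 and 49.5 CPM, and the vertical scales differ between panels.

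The 22 transcripts of the 6 members include 9 that met the rule and 14 without overlap between the tissues, for which the members were chosen. Of all 3817 transcripts of kept models, 1145 were without overlap, or 30%. In 4 members T01 had the higher mean share in TI, namely GRMZM2G112337, GRMZM2G126665, GRMZM2G355523 and GRMZM2G058039, and in GRMZM2G104658 and GRMZM2G314882 it had the higher mean share in FI. This split was not counted over all kept models. Nothing is read from it, since the shares chose the members. Apart from atg1t, the log2FC of the summed level lay between −0.48 and 0.02, and the median absolute log2FC of all kept models was 0.32. Fewer cells of a type and less RNA per cell cannot be told apart in such tissue samples.

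The spread between libraries of 1 tissue was compared with the difference between tissues. In 2 members, GRMZM2G112337 and GRMZM2G126665, the libraries of 1 tissue differed by more than the tissue means. In the transcripts with the largest difference, the FI libraries were between 2.72 and 23.8 percentage points apart and the TI libraries between 1.43 and 31.5 percentage points. Over all kept models, a transcript differed by at least 20 percentage points between the FI libraries in 20 models and between the TI libraries in 20 models, while means that differed so much between the tissues were found in 6. A difference of single libraries varies more than a difference of means, so these counts are not on the same footing.

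**Figure D4:**
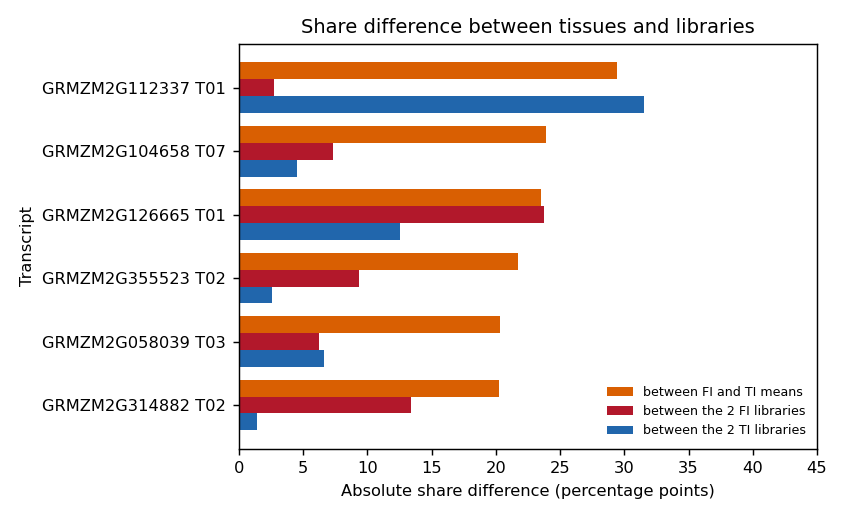
For the transcript with the largest difference in each member, bars give the absolute share difference (percentage points) between the FI and TI means, between the 2 FI libraries and between the 2 TI libraries. The difference between tissue means is exceeded by that between the TI libraries in GRMZM2G112337 (31.5 against 29.4) and by that between the FI libraries in GRMZM2G126665 (23.8 against 23.5).

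The share in TI replicate 2 lay between TI replicate 1 and the FI mean in 4 of the 6 members, namely GRMZM2G112337, GRMZM2G104658, GRMZM2G058039 and, by 1.43 percentage points, GRMZM2G314882. In GRMZM2G126665 and GRMZM2G355523 it was farther from FI than TI replicate 1 was. In the transcript with the largest difference, TI replicate 2 was nearer to the FI mean than TI replicate 1 was in 713 of the 1560 kept models, or 45.7%. Nearer is a wider measure than between, although it also held for 4 of the 6 members. The transcripts of the kept models did not have to be without overlap, and models with equal distances counted as not nearer. This percentage is therefore not an even background for the members. TI replicate 2 is also the library with the higher summed level of the 10 floral genes, 315 against 40.7 CPM in TI replicate 1, and without kn1 300.2 against 16.5 CPM, and the part of this in the shares was not tested.

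The members nearest to the limit were GRMZM2G314882, GRMZM2G058039 and GRMZM2G355523, with 20.3, 20.3 and 21.7 percentage points. Just outside it were GRMZM2G322661, GRMZM2G074300 and GRMZM2G109472. T02 of GRMZM2G322661 held 81.2% and 80.3% in FI, against 63.6% and 59.6% in TI, a difference of 19.1 percentage points. T01 of GRMZM2G074300 had a difference of 18.0 percentage points and T01 of GRMZM2G109472 one of −17.6 percentage points. The members thus form the upper end of a continuous range.

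The count of 6 depended on the libraries, the depth and the limit. Without FI replicate 1, FI replicate 2, TI replicate 1 and TI replicate 2, the rule gave 11, 18, 10 and 26 models, and it then asks for no overlap with 1 library only. Of the 6 members, 3, 5, 3 and 5 were still among them, and atg1t was in all 4 sets. Without TI replicate 1 the difference in T01 of GRMZM2G112337 was −13.7 percentage points, and without FI replicate 1 that of GRMZM2G126665 was −11.6 percentage points. With a minimum of 100 counts in each library 2 of 753 models met the rule, GRMZM2G112337 and GRMZM2G058039, and with a minimum of 200 counts 0 of 302 did.

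Transcript use was also fitted across all kept models with the quasi-likelihood test of edgeR, which uses the same contrast as the rule. Of 877 models with at least 2 transcripts of 10 or more counts in all, 0 had an FDR under 0.05 (0%), which includes 0 of the 6 members. An unadjusted p under 0.05 was found for 28 of the 877, or 3.19%, and with limma the FDR was under 0.05 in 0 models and the unadjusted p in 42. For the summed counts, 0 of 15479 gene models had an FDR under 0.05 by the quasi-likelihood test of edgeR (0%) and 2443, or 15.8%, an unadjusted p under 0.05. DESeq2 gave 324 models with an FDR under 0.05 and 0 of the 6 members, or 2.13% of those tested, and the exact test of edgeR gave 801, or 5.17%, with 1 member, atg1t. When genes with low counts were not removed, 1.82% of the gene models were called, again with atg1t as the 1 member.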

How the data were processed

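RNA of FI and TI was sequenced with 2 libraries each. Per the labels, reads were checked with FastQC 0.11.2, cleaned with Trimmomatic and aligned with TopHat2 2.0.13 on B73 RefGen_v3, while the methods name RefGen_v4. The authors deposited raw read counts per transcript under version 3 names, and transcripts without any count are not listed. The counting tool, and how it treated reads shared by transcripts of a gene, is not given in the sources used here, and this treatment sets the shares directly. The authors also used CLC Genomics Workbench to make FPKM values per gene. The fold changes and FDR of the authors' own comparison were not used.

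Shares were computed from the deposited counts in Python 3.11.15, with Wilson 95% intervals. Levels were normalized by TMM and fitted with edgeR 4.0.16 in R 4.3.3 (filterByExpr, glmQLFTest), transcript use with diffSpliceDGE and a Simes p per gene model, both with Benjamini-Hochberg FDR under 0.05 and no block. The standard error of a log2FC, which is FI over TI, was derived from the F statistic. Alternatives used limma 3.58.1 and DESeq2 1.42.0. Whether these fits can find share differences of the size seen in the members was not tested. Version 3 names were matched to RefSeq symbols for 1271 of 1560 kept models and 4 of 6 members. Coordinates are not given, since the builds differ.

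The members and lists were chosen with earlier results of these data known. The naming rule asked for members with the largest differences and at least 200 counts in every library (0 members), those with another leading transcript, named genes, the models nearest to the limit and members of gene lists of splicing and transcription factors (0 members), and all 6 members were described. Further gene lists, looked up by the start of the symbol, took in unrelated genes and were not used.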

Additional observations from a re-analysis of the deposited data

How the results depend on the processing

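The number of switching models was 39 with a minimum of 20 counts, 2 with 100, 0 with 200 and also 0 at the strictest minimum tried. It was 66 with a share difference of at least 0.1, 0 with 0.3 and 0 with 0.5. With Wilson intervals of both FI libraries apart from those of both TI libraries it was 1. Pooled counts gave 6, leaving out transcripts under 10 counts gave 5, and both gave only members. When single libraries were left out it ranged from 10 to 26, where the overlap rule is weaker by construction. The median absolute difference of the members was 22.6 percentage points, with 18.7 to 27.3 when single libraries were left out. Single differences of the members then had sizes between 11.6 and 45.2 percentage points. With 2 libraries in a tissue, leaving one out cannot move a difference by more than 1 SD or change the sign of a member, so the signs say nothing about stability. Pooled counts and the removal of transcripts under 10 counts gave 12 member values, of which 11 moved by less than 1 SD between replicates. The exception was T07 of GRMZM2G104658 without transcripts under 10 counts, at −19.0 percentage points. For summed counts, models with an FDR under 0.05 numbered 324 with DESeq2, 801 with the exact test and 477 when genes with low counts were not removed, and ranged from 0 to 4072 when single libraries were left out, where the lone library of a tissue is assumed to vary like the others. For transcript use the count was 0 or 1 with each library left out, and the 1 model, GRMZM2G138676 without TI replicate 2 (FDR = 0.0205 by edgeR), is not a member. The labels do not say what the replicate numbers mark. With the replicate block, edgeR called 1 of 877 models for transcript use, or 0.114%, and 0 models for summed counts. The 1 model was GRMZM2G112337 (FDR = 0.0122 by edgeR), a member chosen by the same shares. The deviations of same-numbered libraries had a correlation of 0.159 across 15479 gene models. Depth limits the shares: 4 of the 6 members had fewer than 100 counts in a library, as had 51.7% of all kept models.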

Other observations

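Genes of splicing and RNA-binding factors were looked up by symbol among the kept models, and 5 were found, all with names of serine/arginine-rich (SR) splicing proteins. SR proteins bind pre-mRNA and guide splice site choice, and in plants their own transcripts are often alternatively spliced. None of the 5 was among the members (0 of 5), against 0.385% of all kept models, so that 0 says nothing about these genes. Their largest share difference between FI and TI had a median of 6.62 percentage points, which is the value of SRP1A (GRMZM2G052166). The median over all kept models was 1.13. In SRP1A every transcript overlapped between the tissues, and the FI libraries differed by up to 36.9 percentage points. The median of the 5 models therefore does not show a difference between the tissues. In srp32 (GRMZM2G436092), described after its values were seen, T01 held 57.8% and 67.4% in FI, against 80.7% and 79.2% in TI, and T04 held 26.7% and 15.7% in FI, against 7.34% and 6.49% in TI. The tissues did not overlap in either transcript, and the 17.4 percentage points of T01 were under the limit for a member. In SCL25A (GRMZM2G426229), T03 held 25.0% and 38.2% in FI, against 42.0% and 45.3% in TI, while T01 overlapped. The other 3, SRP1A, srp30 and SCL30, had largest differences of 6.62, 4.18 and 0.13 percentage points.

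Of 16 models with a transcription factor symbol, 0 were members, against 0.385% of all kept models. With so few models, 0 members says nothing about transcription factors. Their largest differences had a median of 0.69 percentage points and reached 10.6 percentage points in MYBR100 (GRMZM5G833032).

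Further models under the limit were described after their values were seen. T05 of GRMZM2G138676 had 3 and 2 counts in FI, against 24 and 7 counts in TI, a share of 1.23% and 0.74% in FI, against 26.7% and 4.09% in TI. T01 of GRMZM2G035996 held 21.5% and 23.1% in FI. In TI it held 0% in replicate 1, from 0 of 72 counts, and 10.4% in replicate 2. With a count of 0 taken to stand for up to 3 counts, the share in TI replicate 1 could be up to 4.17%. In both models TI replicate 2 lay between TI replicate 1 and the FI libraries.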
